A study of Rattus norvegicus with 18 samples.

Results

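Collagens, elastic fibre components, proteoglycans, adhesive glycoproteins and the enzymes that crosslink them were followed as a set of 40 genes in the livers of rats given carbon tetrachloride (CCl4) or N-nitrosodiethylamine (DEN). Genes were chosen by what they encode, but with earlier results of these data known, so the counts below are no independent test. Each gene was read from the array probe with the highest mean level over all 18 arrays among the probes whose RefSeq accession matched it. Of the 40 genes, 30 had a matched probe and 26 passed the filter on dim probes and were tested, out of 10914 genes tested on the arrays. The animals were male F344 rats, 5 weeks old at purchase, and liver RNA of 1 rat went on each array, with 3 rats in each of 6 groups. CCl4, a solvent that kills hepatocytes after it is metabolised, was dosed at 100 mg/kg with corn oil as its vehicle, and DEN, a nitrosamine that alkylates DNA, at 4 mg/kg with saline. Dosing was by daily gavage, 5 mL/kg in volume, and lasted 28 or 84 days. The controls of each day are called vehicle in the sample titles but untreated, with a basal diet, in the protocol, so gavage and vehicle may not have been matched. The series design text speaks of day 28 alone, and day 84 comes from the titles and the treatment protocol.

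Fibrillar collagens are rope-like proteins that give scar tissue its strength. In injured liver they are known to be laid down mainly by hepatic stellate cells that turn into myofibroblasts and by fibroblasts around the portal tracts. Basement membrane collagens and laminins form thin sheets under epithelial and endothelial cells, elastic fibres of elastin on a fibrillin scaffold give recoil, small proteoglycans bind collagen and space its fibrils, and lysyl oxidases crosslink collagen and elastin into insoluble networks. In whole-liver RNA, more cells of a type and more RNA per cell cannot be told apart.

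Levels are given as log2 of the processed signal minus the 75th percentile of the array, in the order of replicates 1, 2 and 3, and levels of different genes are not comparable because each probe has its own brightness. Differences are log2 fold changes with the standard error (SE) of a limma fit to all arrays, and a gene was called at an adjusted p under 0.05. The p-values measure the spread between these rats. Probes well above background made up 47.2% to 57.0% of each array, and all 8 hepatocyte markers were above background in every group. Arrays of 1 group correlated at 0.976 to 0.996 across genes, which are not independent replicates. Replicate 2 of the CCl4 group at day 28 stood apart on the first principal component, at 75.7 against 38.1 and 25.4 for the others of its group. The arrays sat on 3 slides: at day 28, CCl4 replicate 3 lay on another slide than its controls, and at day 84, CCl4 replicates 2 and 3 lay on the third slide.

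Against controls of the same day, matrix genes were higher with CCl4 at both days and, in part, with DEN at day 84. In CCl4 livers at day 28, 21 of the 26 genes tested were called higher and 2 lower than in controls, where 26.1% of all genes tested were called higher and 33.6% lower. The median difference of the set was 1.51, against −0.06 over all genes. At day 84, 23 were called higher and 1 lower with CCl4 (28% and 36.3% of all genes), with a median of 2.61 against −0.10 over all genes. With DEN, 2 were called higher and 0 lower at day 28 (7.82% and 7.19% of all genes), with a median of 0.43 against −0.04. At day 84, 13 were called higher and 2 lower with DEN (21.6% and 31.1% of all genes), with a median of 0.79 against −0.08. The same 21 genes were called higher in both CCl4 comparisons, which share no arrays. All 3 CCl4 rats lay above all 3 controls in 21 genes at day 28 (26.1% of all genes) and in 23 at day 84 (31%), and below them in 2 (34.6%) and 1 (40.8%). All 3 DEN rats lay above the controls in 8 genes at day 28 (17% of all genes) and in 19 at day 84 (26.3%), and below them in 3 (25.8%) and 3 (38.6%).

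Of the 26 genes, 20 were well above background on all 18 arrays, and 6 were not (Col5a3, Col15a1, Fbln1, Fbln5, Lum and Fmod). A gene that passed the filter only through a bright treated group had to differ, so the counts are also given without the 6. Among the 20, CCl4 called 17 higher and 2 lower at day 28 and 18 higher and 1 lower at day 84, and DEN called 2 higher and 0 lower at day 28 and 10 higher and 2 lower at day 84. The shares of all genes given above also cover genes that were not well above background on every array. No share for genes as bright as the 20 is set beside these counts, so whether the counts exceed such a share was not tested. With the genes that were dim in every control rat set at their lower bound, the medians were 1.49 and 2.46 for CCl4 at day 28 and day 84, and 0.43 and 0.67 for DEN. Lum with DEN at day 84 had no positive bound and was left at its fitted value. With its controls at the lowest signal well above background its difference was −0.76, so the median of 0.67 is not a lower bound. The choice of scale matters for directions. Scaling to spike-in RNA moved the median difference of all genes to 0.72 for CCl4 and 0.35 for DEN at day 28, and to 0.46 and 0.65 at day 84. The share of called genes that were higher then became 93.9% for CCl4 and 97.9% for DEN at day 28 and 89.1% and 96.5% at day 84, against 43.7%, 52.1%, 43.5% and 40.9% in the same order with the 75th percentile. On that scale 24 and 24 of the matrix genes were called higher with CCl4 at day 28 and day 84, and 11 and 23 with DEN, so all differences below are relative to the 75th percentile of each array.

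**Figure D1:**
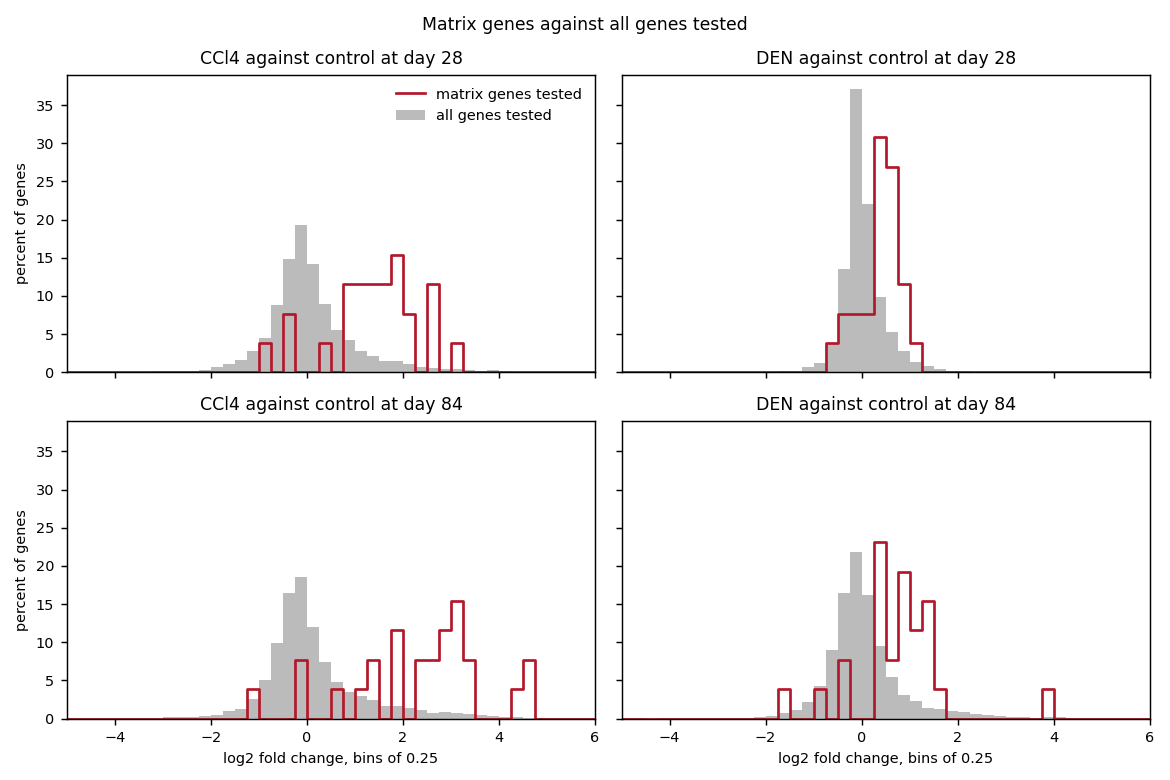
Histograms of log2 fold changes against the controls of the same day, with bins of 0.25 on the x axis and the percentage of genes on the y axis, for CCl4 (left) and DEN (right) at day 28 (top) and day 84 (bottom). Grey bars are the 10914 genes tested and red outlines the 26 matrix genes, whose medians were 1.51 and 2.61 with CCl4 and 0.43 and 0.79 with DEN.

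Promoter sequence was at hand for 26 of the 40 genes, 14 of them tested, from RefSeq on assembly GRCr8. A few are shown because they span the patterns of the set: Col1a2, Col8a1 and Loxl1 were among the largest rises with CCl4, Col4a1 shares its promoter with another gene of the set, and Col18a1 was called lower. Each run is the 250 bases before the annotated start, 5′ to 3′ on the strand of the gene, with matches to TATAAA, to CCAAT and to GGGCGG, in either orientation, in capitals. The windows lie at chr4:33518307-33518556 (plus strand) for Col1a2, chr11:56246532-56246781 (plus) for Col8a1, chr8:67612225-67612474 (minus) for Loxl1, chr16:84885347-84885596 (plus) for Col4a1 and chr20:11473395-11473644 (plus) for Col18a1.
Col1a2: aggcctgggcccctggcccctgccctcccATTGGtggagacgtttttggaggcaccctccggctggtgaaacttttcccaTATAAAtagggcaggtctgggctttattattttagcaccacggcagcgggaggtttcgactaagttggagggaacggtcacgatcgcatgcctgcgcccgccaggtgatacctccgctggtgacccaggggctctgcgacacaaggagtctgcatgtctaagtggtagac
Col8a1: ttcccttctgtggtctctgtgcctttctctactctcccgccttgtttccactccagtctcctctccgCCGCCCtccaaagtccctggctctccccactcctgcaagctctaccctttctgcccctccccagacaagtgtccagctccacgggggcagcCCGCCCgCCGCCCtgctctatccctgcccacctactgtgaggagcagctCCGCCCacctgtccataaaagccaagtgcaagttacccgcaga
Loxl1: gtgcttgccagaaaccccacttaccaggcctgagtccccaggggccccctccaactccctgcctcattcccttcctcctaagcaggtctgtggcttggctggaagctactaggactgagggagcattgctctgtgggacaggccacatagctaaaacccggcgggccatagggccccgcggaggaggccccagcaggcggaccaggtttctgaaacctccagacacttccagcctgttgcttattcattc
Col4a1: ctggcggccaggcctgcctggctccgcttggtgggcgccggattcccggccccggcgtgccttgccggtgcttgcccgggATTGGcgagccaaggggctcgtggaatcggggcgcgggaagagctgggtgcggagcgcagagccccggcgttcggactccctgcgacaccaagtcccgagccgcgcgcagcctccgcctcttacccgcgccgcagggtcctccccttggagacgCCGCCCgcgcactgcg
Col18a1: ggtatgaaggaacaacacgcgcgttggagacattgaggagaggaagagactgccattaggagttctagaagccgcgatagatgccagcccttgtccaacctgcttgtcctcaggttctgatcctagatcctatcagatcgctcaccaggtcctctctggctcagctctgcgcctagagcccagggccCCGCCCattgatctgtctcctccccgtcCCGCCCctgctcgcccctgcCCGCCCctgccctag
The Col1a2 window held 1 TATAAA and 1 CCAAT match, the Col8a1 window 4 GGGCGG matches, the Col4a1 window 1 CCAAT and 1 GGGCGG match, the Col18a1 window 3 GGGCGG matches and the Loxl1 window none of the 3 motifs. The Col4a1 window overlapped that of Col4a2, the partner chain of type IV collagen, by 76 bases. Col4a2 itself had no matched probe and was not analysed here. Across the 14 tested genes, GGGCGG stood in 8 windows, CCAAT in 5 and TATAAA in 1. Of all 33469 windows of the same length, those of the set included, 30.5%, 34.0% and 12.9% held them. CAGAC, the letters of a Smad-type site, stood in 10 of the 14 (42.9% of all windows), and TGANTCA, those of an AP-1 type site, in 0 of the 14 (6.34% of all windows). A match describes letters and shows no binding, and GC content, which was 51.2% in the median window, ranged from 58.4% for Col1a2 to 75.2% for Col4a1 among those shown.

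Fibrillar collagens rose together with CCl4, all 5 of 5 tested at both days, with medians of 1.83 at day 28 and 2.78 at day 84. Col1a1, the major chain of type I collagen, had day 28 levels of 2.80, 4.45 and 2.65 in CCl4 rats, 1.35, 1.13 and 0.88 in DEN rats, and 0.87, 0.42 and 0.68 in controls. At day 84 its levels were 3.18, 3.41 and 4.10 with CCl4, 0.86, 1.21 and 0.95 with DEN, and 0.50, 0.29 and 0.59 in controls. Every CCl4 rat lay above every DEN and control rat, and CCl4 replicate 2 at day 28 was the highest of all 18. Col1a1 was 6.26-fold higher with CCl4 at day 28 (2.65 ± 0.37, adjusted p = 3.71e-05) and 8.57-fold higher at day 84 (3.10 ± 0.37, adjusted p = 8.14e-06). Without replicate 2 the day 28 difference was 2.07 (adjusted p = 1.12e-05). DEN differences of 0.46 ± 0.37 at day 28 and 0.54 ± 0.37 at day 84 were not called (adjusted p = 0.406 and 0.227).

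The other 2 probes for Col1a1 gave larger values than the probe chosen by its mean level. For CCl4 they showed 4.32 ± 0.51 and 3.88 ± 0.43 at day 28, and 5.65 ± 0.51 and 5.19 ± 0.43 at day 84. With DEN at day 84 they gave 2.32 ± 0.51 and 2.09 ± 0.43, both called in the fit over all probes (adjusted p = 0.00211 and 0.00152), whereas the chosen probe was not (adjusted p = 0.237 in the same fit). The DEN result for Col1a1 at day 84 therefore depends on the probe. Over the 17 tested matrix genes with more than 1 probe and the 4 comparisons with controls, probes of 1 gene differed in sign in 6 of 68 cases and in 0 were they called in opposite directions.

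Col1a2, the partner chain of type I collagen, had day 28 levels of 5.33, 6.49 and 5.07 with CCl4, 3.88, 3.45 and 3.40 with DEN, and 3.31, 3.14 and 2.49 in controls. At day 84 they were 5.62, 5.58 and 6.06 with CCl4, 3.19, 3.64 and 3.40 with DEN, and 2.28, 2.27 and 2.31 in controls. The 3 groups were fully separated at both days, and the controls of day 84 were nearly identical. Its rise with CCl4 was 6.29-fold at day 28 (2.65 ± 0.30, adjusted p = 7.95e-06) and 11.1-fold at day 84 (3.47 ± 0.30, adjusted p = 6.88e-07). With DEN it rose 2.18-fold at day 84 (1.12 ± 0.30, adjusted p = 0.00714), and at day 28 the difference of 0.59 ± 0.30 was not called (adjusted p = 0.197).

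Col3a1, the single chain of type III collagen, had levels of 6.02, 6.80 and 6.07 with CCl4, 5.11, 4.98 and 4.88 with DEN, and 4.91, 4.49 and 3.99 in controls at day 28. Its day 84 levels were 6.19, 6.13 and 6.85 with CCl4, 4.27, 4.57 and 4.50 with DEN, and 3.75, 3.47 and 3.61 in controls. DEN rats overlapped controls at day 28 and lay above them at day 84. The gene rose 3.56-fold with CCl4 at day 28 (adjusted p = 2.85e-05), 6.86-fold with CCl4 at day 84 (adjusted p = 7.46e-07) and 1.78-fold with DEN at day 84 (adjusted p = 0.0116). Col5a1 and Col5a3, chains of the type V collagen that seeds fibrils, rose with CCl4 by 1.54 ± 0.25 and 1.07 ± 0.35 at day 28 and by 1.48 ± 0.25 and 1.11 ± 0.35 at day 84, and neither was called with DEN. Col5a3 was dim, with all 3 DEN rats at day 28 between −4.50 and −3.23, and its call was lost at day 28 without CCl4 replicate 2 (0.72) or control replicate 1 or 2 (0.95 each), and at day 84 without CCl4 replicate 3 (0.88).

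**Figure D2:**
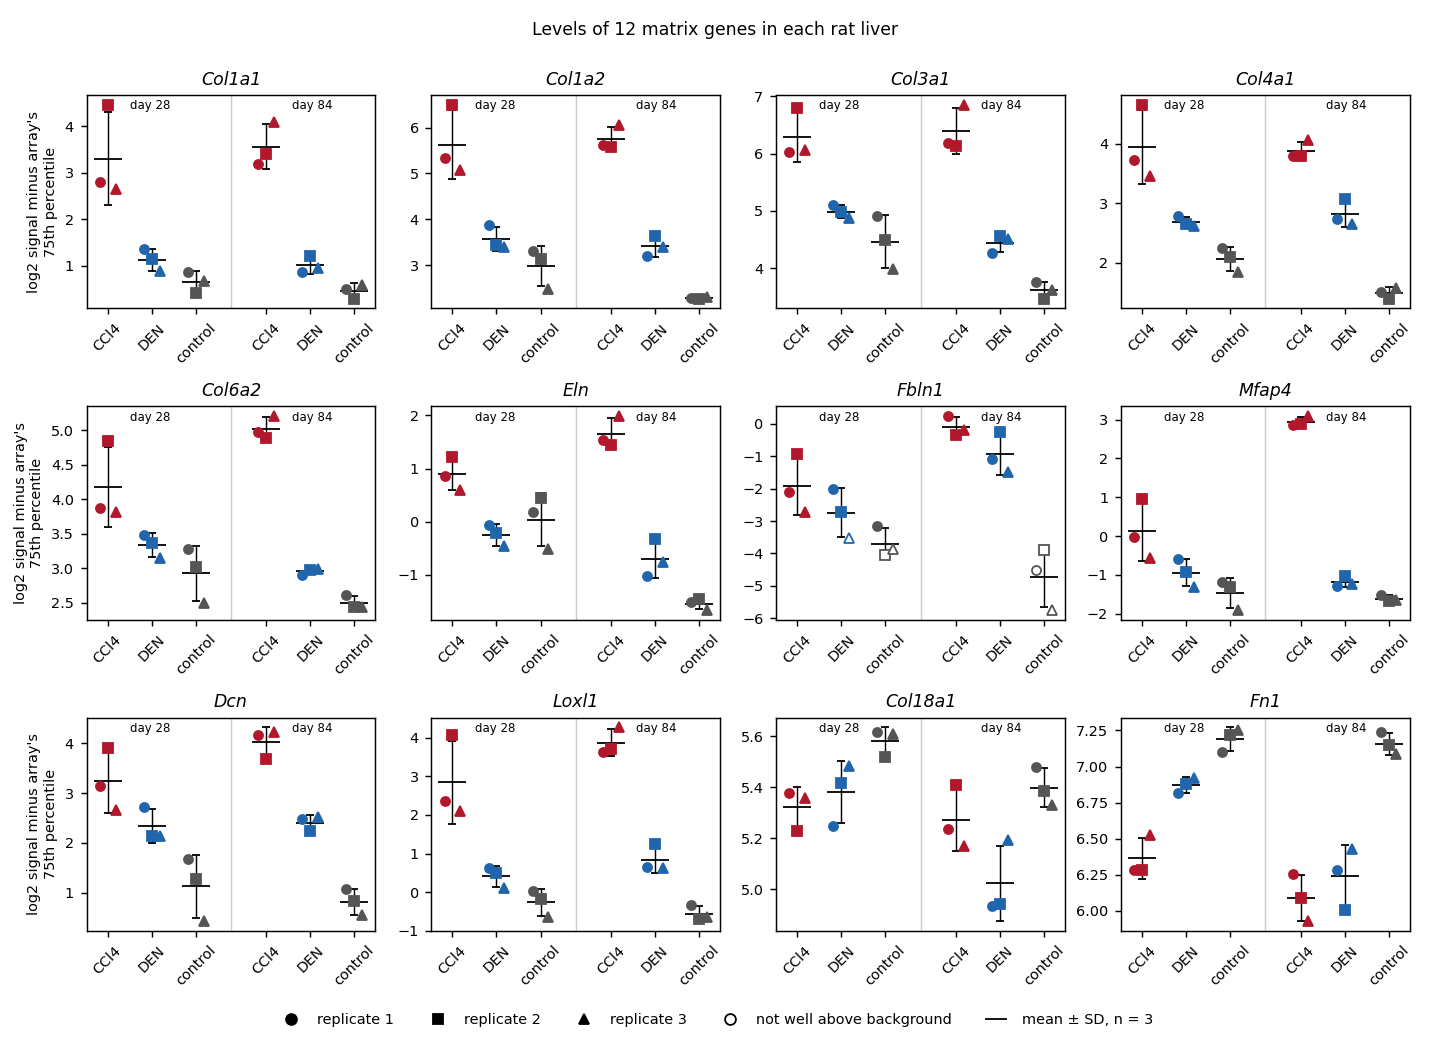
Levels of 12 matrix genes in each rat, as log2 signal minus the 75th percentile of the array on the y axis, for CCl4, DEN and control rats at day 28 (left in each panel) and day 84 (right). Marker shapes are replicates, open markers are not well above background, and lines are the mean ± SD of 3 rats. Col1a1 with CCl4 spans 2.65 to 4.45 at day 28, and Mfap4 with CCl4 lies between 2.85 and 3.09 at day 84.

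The other collagens tested were 3 of 6 listed, and all 3 rose with CCl4 at both days. Col8a1, a short-chain collagen known from vessel walls, had day 28 levels of 0.27, 1.49 and −0.05 with CCl4, −1.53, −2.73 and −2.42 with DEN, and −1.69, −2.31 and −2.42 in controls. Its day 84 levels were −0.28, 0.04 and 0.58 with CCl4, −1.85, −1.31 and −1.84 with DEN, and −3.06, −3.15 and −3.24 in controls. DEN rats mixed with controls at day 28 and lay wholly above them at day 84. Col8a1 rose 6.55-fold with CCl4 at day 28 (adjusted p = 3.92e-05), 9.59-fold with CCl4 at day 84 (adjusted p = 6.95e-06) and 2.79-fold with DEN at day 84 (adjusted p = 0.00503), and the last call was lost with another background correction (0.47).

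Col6a2, a chain of the beaded filaments of type VI collagen, had day 28 levels of 3.87, 4.84 and 3.82 with CCl4, 3.48, 3.37 and 3.15 with DEN, and 3.28, 3.01 and 2.49 in controls. At day 84 the levels were 4.98, 4.88 and 5.20 with CCl4, 2.90, 2.97 and 2.98 with DEN, and 2.62, 2.44 and 2.44 in controls. The rise with CCl4 was 2.37-fold at day 28 (adjusted p = 0.000426) and 5.75-fold at day 84 (adjusted p = 1.11e-06), and DEN differences of 0.40 ± 0.23 and 0.46 ± 0.23 were not called. Col14a1, which sits on the surface of collagen fibrils, was 1 of the 2 genes called with DEN at day 28, at 0.77 ± 0.19 (1.71-fold, adjusted p = 0.0152). Levels there were 3.30, 3.15 and 3.13 with DEN, against 2.88, 2.30 and 2.07 in controls, without overlap. That call was lost without control replicate 2 (0.71) or 3 (0.60) or DEN replicate 1 (0.72). Col14a1 also rose with CCl4 at both days, by 1.45 ± 0.19 and 1.37 ± 0.19, and with DEN at day 84, by 0.81 ± 0.19.

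Genes of the basement membrane were mixed. Of the 4 tested among 8 listed, 2 rose and 1 fell with CCl4 at day 28, 3 rose and 0 fell with CCl4 at day 84, 0 were called with DEN at day 28, and 2 rose and 1 fell with DEN at day 84. Col4a1, a chain of the type IV collagen network, had day 28 levels of 3.73, 4.65 and 3.46 with CCl4, 2.79, 2.65 and 2.61 with DEN, and 2.25, 2.10 and 1.84 in controls. At day 84 they were 3.79, 3.79 and 4.06 with CCl4, 2.73, 3.07 and 2.65 with DEN, and 1.51, 1.39 and 1.58 in controls. The 3 groups were separated at both days. It rose 3.69-fold with CCl4 at day 28 (adjusted p = 1.16e-05), 5.24-fold with CCl4 at day 84 (adjusted p = 1.33e-06) and 2.50-fold with DEN at day 84 (adjusted p = 0.000322), and the DEN difference at day 28 (0.62 ± 0.23) was not called (adjusted p = 0.0772). With CCl4 at day 28, 3 of its 4 probes gave 1.88 to 2.01 and the other gave 0.11 ± 0.13.

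Col15a1, a collagen at the outer face of basement membranes, was not well above background in any control rat. It was at least 2.56-fold higher with CCl4 at day 28 (adjusted p = 0.000458) and at least 3.42-fold higher at day 84 (adjusted p = 7.41e-06), with levels of −2.23, −2.00 and −2.49 and of −1.74, −1.90 and −2.01. With DEN at day 84 the bound was at least 1.11-fold (adjusted p = 0.0313). Each of these p-values belongs to the fitted difference and does not test the bound. The sign of the DEN difference at day 84 turned with another background correction (−0.17). Its call was lost without DEN replicate 1 (0.71) or 3 (0.78) or control replicate 2 (0.80) or 3 (0.39).

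Col18a1, whose C-terminal part is endostatin and which hepatocytes are known to express, went the other way. Its day 28 levels were 5.38, 5.23 and 5.36 with CCl4, 5.25, 5.42 and 5.48 with DEN, and 5.62, 5.52 and 5.61 in controls. At day 84 they were 5.24, 5.41 and 5.17 with CCl4, 4.93, 4.94 and 5.19 with DEN, and 5.48, 5.39 and 5.33 in controls. Treated rats lay below the controls at both days, with an overlap for CCl4 at day 84. It fell by 0.26 on the log2 scale with CCl4 at day 28 (SE 0.091, adjusted p = 0.0236) and by 0.37 with DEN at day 84 (adjusted p = 0.00358). The directions turned with spike-in scaling, to 0.52 and 0.35, and for CCl4 also with quantile normalization, to 0.025. The CCl4 call at day 28 was lost without CCl4 replicate 2 (−0.21) or control replicate 1 (−0.24) or 3 (−0.25). Lamc1, the gamma chain of most laminins, averaged 2.15 ± 0.16 with CCl4 and 1.51 ± 0.089 in controls at day 84 (SD, n = 3 each) and rose by 0.64 ± 0.16 (SE, adjusted p = 0.00259). A second probe gave −0.13 ± 0.15, and with the mean of both probes the call was lost (0.25, adjusted p = 0.125).

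Elastic fibre genes were among those with the largest rises at day 84, and all 5 tested, of 6 listed, rose with CCl4 at both days, with medians of 1.59 and 3.20. With DEN, 0 of 5 were called at day 28 and 4 rose at day 84. Eln, which encodes elastin, had day 28 levels of 0.87, 1.22 and 0.60 with CCl4, −0.06, −0.22 and −0.46 with DEN, and 0.19, 0.44 and −0.52 in controls. At day 84 its levels were 1.54, 1.44 and 1.99 with CCl4, −1.03, −0.33 and −0.76 with DEN, and −1.51, −1.45 and −1.66 in controls. The controls of day 84 lay below every control of day 28. Eln rose 1.82-fold with CCl4 at day 28 (adjusted p = 0.00762), 9.17-fold with CCl4 at day 84 (adjusted p = 2.23e-07) and 1.78-fold with DEN at day 84 (adjusted p = 0.011). The mean of its 3 probes lost the calls for CCl4 at day 28 (0.38, adjusted p = 0.233) and DEN at day 84 (0.45, adjusted p = 0.177), and the DEN call was also lost without DEN replicate 2 (0.64).

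Mfap4, a microfibril protein of elastic fibres that is known as a marker of liver scar, had day 28 levels of −0.02, 0.95 and −0.57 with CCl4, −0.60, −0.93 and −1.30 with DEN, and −1.18, −1.31 and −1.90 in controls. At day 84 it stood at 2.85, 2.88 and 3.09 with CCl4, −1.29, −1.04 and −1.24 with DEN, and −1.52, −1.68 and −1.64 in controls. All 3 CCl4 rats of day 84 lay above every other rat. Its rise with CCl4 was 3.00-fold at day 28 (adjusted p = 0.000413) and 23.5-fold at day 84 (4.56 ± 0.30, adjusted p = 7.44e-08). DEN differences of 0.52 ± 0.30 and 0.43 ± 0.30 were not called (adjusted p = 0.247 and 0.242), although the day 84 groups did not overlap.

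Fbln1, a fibulin that binds elastin and fibronectin, had the largest DEN difference of the set at day 84. No control rat at day 84 was well above background, and the levels were 0.24, −0.34 and −0.19 with CCl4 and −1.08, −0.24 and −1.48 with DEN, against −4.51, −3.91 and −5.74 in controls. It was at least 12.7-fold higher with CCl4 (adjusted p = 6.71e-06 for the fitted difference) and at least 7.11-fold higher with DEN (adjusted p = 7.04e-05, likewise). At day 28 it rose 3.43-fold with CCl4 (1.78 ± 0.53, adjusted p = 0.0106, 1 of 3 control arrays well above background), a call lost without CCl4 replicate 2 (1.28), and was not called with DEN (0.95 ± 0.53).

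Fbln5, which guides elastin onto microfibrils, rose 2.58-fold with CCl4 at day 28 (adjusted p = 0.00166), 8.59-fold with CCl4 at day 84 (adjusted p = 1.95e-06) and 2.64-fold with DEN at day 84 (adjusted p = 0.00194, 1 of 3 control arrays well above background). Its day 84 levels were −1.05, −0.68 and −0.47 with CCl4, −2.89, −2.27 and −2.15 with DEN, and −3.80, −3.22 and −4.49 in controls. The groups did not overlap there. With another background correction its CCl4 call at day 28 (0.28) and DEN call at day 84 (0.13) were lost. Fbn1, the fibrillin of the microfibril scaffold, rose by 2.17 ± 0.30 and 2.88 ± 0.30 with CCl4 at day 28 and day 84 and by 1.14 ± 0.30 with DEN at day 84.

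Proteoglycans were led by Dcn, which encodes decorin, a small proteoglycan that binds collagen fibrils. Its day 28 levels were 3.14, 3.90 and 2.66 with CCl4, 2.73, 2.14 and 2.15 with DEN, and 1.68, 1.27 and 0.43 in controls. At day 84 they were 4.17, 3.69 and 4.22 with CCl4, 2.48, 2.23 and 2.51 with DEN, and 1.07, 0.82 and 0.55 in controls. Both treated groups lay above the controls at both days. Dcn rose in all 4 comparisons with controls: 4.31-fold with CCl4 and 2.32-fold with DEN at day 28 (adjusted p = 8.70e-05 and 0.0241), and 9.26-fold and 3.01-fold at day 84 (adjusted p = 2.22e-06 and 0.00114). The DEN call at day 28 was lost without control replicate 3 (0.87) or DEN replicate 1 (1.02).

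Bgn, which encodes the related biglycan, had levels of 7.85, 7.93 and 8.22 with CCl4, 6.48, 6.49 and 6.75 with DEN, and 6.34, 6.16 and 6.21 in controls at day 84. It rose with CCl4 by 0.89 ± 0.18 at day 28 and 1.76 ± 0.18 at day 84 (adjusted p = 0.00067 and 2.20e-06), and DEN differences of 0.45 ± 0.18 and 0.34 ± 0.18 were not called. Lum, which encodes lumican, was dim in every control at day 84 and was at least 2.20-fold higher with CCl4 there (adjusted p = 0.00134 for the fitted difference). Its levels were −1.69, −2.87 and −3.30 in CCl4 rats. Fmod, which encodes fibromodulin, was not called in any comparison, and its differences ranged from −1.69 ± 0.79 with DEN at day 84, where DEN replicate 2 lay at −6.03 and was not well above background, to 0.95 ± 0.79 with DEN at day 28. Vcan, which encodes versican, was well above background on 1 array, CCl4 replicate 1 at day 84, and was not tested.

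Adhesive and matricellular glycoproteins held the one gene that fell in 3 of the 4 comparisons with controls. Fn1 encodes fibronectin, which hepatocytes are known to secrete into plasma and mesenchymal cells to lay down in tissue. Its day 28 levels were 6.28, 6.28 and 6.52 with CCl4, 6.82, 6.88 and 6.92 with DEN, and 7.10, 7.22 and 7.26 in controls. At day 84 they were 6.25, 6.09 and 5.93 with CCl4, 6.28, 6.01 and 6.43 with DEN, and 7.24, 7.15 and 7.09 in controls. Every treated rat lay below all controls of its day. Fn1 fell by 0.83 with CCl4 at day 28 (SE 0.11, adjusted p = 2.60e-05), by 1.07 with CCl4 at day 84 (adjusted p = 2.57e-06) and by 0.92 with DEN at day 84 (adjusted p = 1.94e-05). The DEN difference at day 28 (−0.32 ± 0.11) was not called (adjusted p = 0.0646), except with slide as a block (adjusted p = 0.0419). With spike-in scaling the CCl4 difference at day 28 was −0.04 (adjusted p = 0.814) and that of DEN at day 84 −0.20 (adjusted p = 0.307), while the CCl4 call at day 84 remained (−0.51, adjusted p = 0.0172). Hepatocyte markers moved beside it: 8 of 8 were lower with CCl4 at day 28, 7 of 8 with CCl4 at day 84, 2 of 8 with DEN at day 28 and 7 of 8 with DEN at day 84, and their part in the fall of Fn1 was not tested. In the same order, 33.6%, 36.3%, 7.19% and 31.1% of all genes tested were called lower.

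Thbs2, which encodes thrombospondin 2, a matricellular protein that restrains vessel growth, rose 3.72-fold with CCl4 at day 28 (adjusted p = 8.15e-05) and 7.33-fold at day 84 (adjusted p = 2.15e-06). Levels at day 84 were −0.08, −0.08 and 0.17 with CCl4, −2.51, −2.78 and −2.32 with DEN, and −3.07, −2.77 and −2.77 in controls. DEN rats overlapped controls, and the DEN differences (0.35 ± 0.29 and 0.33 ± 0.29) were not called. Sparc, which encodes osteonectin, a collagen-binding glycoprotein, had levels of 6.05, 6.36 and 6.72 with CCl4, 4.97, 5.16 and 4.98 with DEN, and 4.54, 4.49 and 4.63 in controls at day 84. It rose with CCl4 by 1.05 ± 0.21 at day 28 and by 1.82 ± 0.21 at day 84 (adjusted p = 0.000742 and 6.97e-06). Its DEN differences (0.31 ± 0.21 and 0.48 ± 0.21) were not called.

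The genes of the set that are known from active wounds were near the limit of detection. Postn, which encodes periostin, was well above background on 1 array, CCl4 replicate 2 at day 28, at −2.77. Tnc, which encodes tenascin C, was well above background on 3 arrays, at −1.69 and −3.47 in CCl4 replicates 2 and 3 at day 28 and at −2.82 in CCl4 replicate 3 at day 84. Thbs1, which encodes thrombospondin 1, was well above background on 0 arrays. None of these was tested, and a signal that is not well above background does not show that the gene is off.

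The lysyl oxidases tested were 2 of 3 listed, and both rose in both CCl4 comparisons and with DEN at day 84. Loxl1, the family member known for crosslinking elastin, had day 28 levels of 2.36, 4.08 and 2.10 with CCl4, 0.63, 0.49 and 0.11 with DEN, and 0.03, −0.17 and −0.65 in controls. At day 84 they were 3.62, 3.72 and 4.27 with CCl4, 0.66, 1.24 and 0.61 with DEN, and −0.35, −0.70 and −0.64 in controls. The groups did not overlap at either day. Loxl1 rose 8.61-fold with CCl4 at day 28 (3.11 ± 0.40, adjusted p = 1.94e-05), 21.6-fold with CCl4 at day 84 (4.43 ± 0.40, adjusted p = 8.02e-07) and 2.63-fold with DEN at day 84 (1.40 ± 0.40, adjusted p = 0.00928). Without CCl4 replicate 2 the day 28 difference was 2.49 (adjusted p = 5.89e-06). Loxl2, known for crosslinking type IV collagen, had levels of 1.19, 1.25 and 1.85 with CCl4, 0.61, 0.68 and 0.67 with DEN, and −0.47, −0.47 and −0.32 in controls at day 84, rising 3.59-fold with CCl4 (adjusted p = 2.55e-05) and 2.10-fold with DEN (adjusted p = 0.00284).

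**Figure D3:**
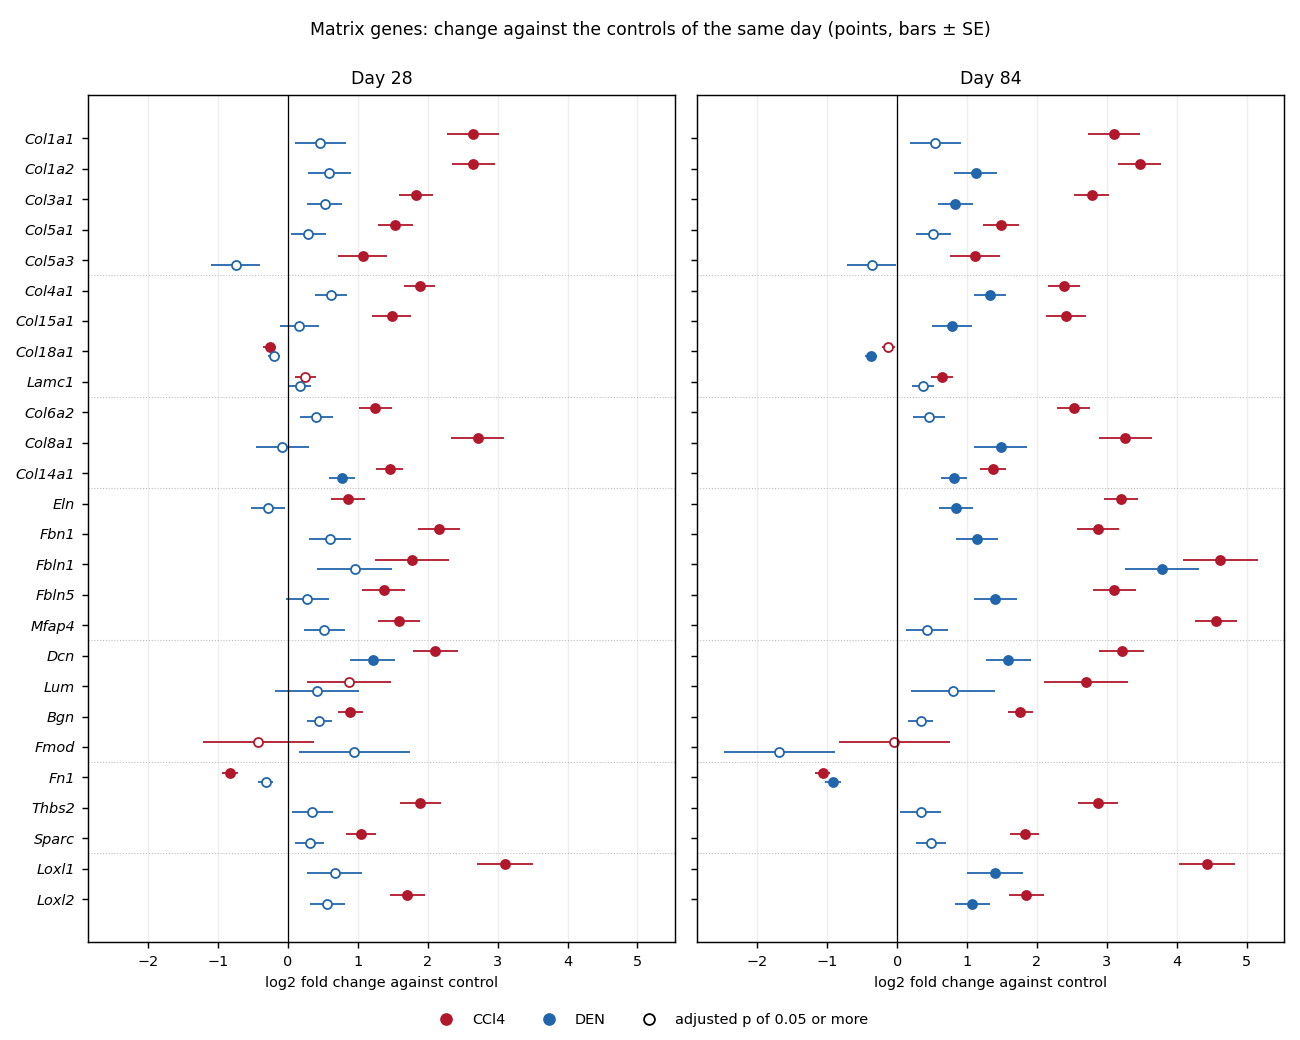
Log2 fold change of each of the 26 matrix genes against the controls of the same day (points) with ± SE (bars), for CCl4 (red) and DEN (blue) at day 28 (left) and day 84 (right), with genes grouped by role and dotted lines between the groups. Open points have an adjusted p of 0.05 or more. CCl4 points lie to the right of DEN points for most genes, and Fn1 lies left of 0 in both panels. Genes not well above background in any control of a day are drawn at their fitted value, which is no bound.

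CCl4 and DEN were also compared directly, although their doses and vehicles differed and cannot be told apart from the compounds. At day 28, 19 of the 26 genes were called higher and 1 lower with CCl4 than with DEN (20.4% and 24.7% of all genes), with a median of 1.12. At day 84, 22 were higher and 0 lower (18.5% and 15.8% of all genes), with a median of 1.64, and 19 genes were higher with CCl4 at both days. All 3 CCl4 rats lay above all 3 DEN rats in 19 genes at day 28 (24.5% of all genes) and 21 at day 84 (25.4%), and below them in 2 (30.3%) and 0 (23.7%). The largest difference at day 84 was that of Mfap4, 17.5-fold higher with CCl4 (4.13 ± 0.30, adjusted p = 5.76e-07), followed by Loxl1, 8.21-fold (3.04 ± 0.40, adjusted p = 8.17e-05), and Col1a1, 5.88-fold (2.56 ± 0.37, adjusted p = 0.000169). Fbln1 was not called at either day, at 0.82 ± 0.53 and 0.83 ± 0.53 (adjusted p = 0.225 and 0.248), and nor were Lamc1 and Fmod. Fn1 was lower with CCl4 than with DEN at day 28 (−0.51 ± 0.11, adjusted p = 0.00197) and not called at day 84 (−0.15 ± 0.11, adjusted p = 0.318). Without CCl4 replicate 2 at day 28 the calls of Col14a1 (0.53), Dcn (0.56) and Sparc (0.50) were lost, and that of Dcn also without CCl4 replicate 1 (0.94) or DEN replicate 2 or 3 (0.80 each). At day 84, those of Loxl2 (0.56 to 0.79), Col14a1 (0.42 to 0.60) and Col18a1 (0.18 to 0.27) were lost without most single arrays of these groups, and that of Lum without CCl4 replicate 1 (1.44) or DEN replicate 3 (1.52).

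Some effects were larger at day 84 than at day 28. The CCl4 effect grew for 5 of the 26 genes and shrank for 0 (3.51% and 2.52% of all genes), and 23 of the 26 had a positive difference between days. Among the 20 genes well above background on every array, 3 were called: Mfap4 (2.97 ± 0.42, adjusted p = 0.00261), Eln (2.34 ± 0.34, adjusted p = 0.00297) and Col6a2 (1.28 ± 0.33, adjusted p = 0.0377). The others were Fbln5 (1.74 ± 0.44, adjusted p = 0.0328), with 1 of 3 controls well above background at day 84, and Fbln1, with 0 of 3, for which the fitted size and its p have no firm base. With the day 84 controls of Fbln1 at the lowest signal well above background, its difference between days was 1.89 for CCl4 and 1.88 for DEN, with no test. Without CCl4 replicate 2 at day 28, 16 genes were called. Mfap4 and Eln passed without any single array, and the calls of Col6a2, Fbln1 and Fbln5 were each lost without several of them. The difference between days of the DEN effect was called higher for 2 genes, Eln (1.12 ± 0.34, adjusted p = 0.0418) and Fbln1, and lower for 1, Fn1 (−0.60 ± 0.16, adjusted p = 0.02), where 7.64% and 8.41% of all genes were called. Without DEN replicate 2 at day 84 none of the 3 was called, with Eln at 0.93 and Fn1 at −0.48. Eln also lost this call without most other single arrays (0.91 to 1.21), and Fn1 without control replicate 1 of day 84 (−0.56).

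The control level of Eln moved between the days as well. Eln averaged −0.71 ± 0.35 in DEN rats of day 84 and −0.25 ± 0.20 in those of day 28 (SD, n = 3 each), so it was not higher in DEN rats at the later day, and the positive DEN difference came from controls that averaged −1.54 ± 0.11 at day 84 and 0.036 ± 0.50 at day 28. In CCl4 rats it averaged 1.66 ± 0.29 at day 84 and 0.90 ± 0.31 at day 28, a smaller step than that between the controls. All 26 genes had a lower mean in controls of day 84 than in those of day 28, with a median of −0.56 against −0.04 over all genes. Eln was lower by 1.58 (SE 0.24, adjusted p = 0.00159) and Col3a1 by 0.85 (SE 0.25, adjusted p = 0.0434), the 2 genes called (4.44% of all genes were higher and 5.32% lower). In 14 genes all 3 controls of day 84 lay below all 3 of day 28, as they did in 21.6% of all genes, and in 0 genes all 3 lay above (14.3% of all genes). Rats of day 84 had also been kept longer, and the controls of the 2 days sat on different slides, so day, age and slide cannot be told apart here. With slide as a block, which links the days through the CCl4 rat on the second slide, 0 genes were called and the median was 0.012. The Col3a1 call was lost without any single control array except replicate 3 of day 28.

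Within the slide that held both groups, the CCl4 rises remained. At day 28, with CCl4 replicates 1 and 2, they were 2.97 ± 0.36 for Col1a1, 2.93 ± 0.32 for Col1a2 and 3.48 ± 0.41 for Loxl1, and 21 genes were called higher and 2 lower. At day 84, with CCl4 replicate 1 alone, assumed to vary like the other groups, they were 2.72 ± 0.46 for Col1a1, 3.33 ± 0.40 for Col1a2, 4.18 ± 0.52 for Loxl1 and 4.47 ± 0.37 for Mfap4, and 22 genes were called higher and 1 lower, with the call of Col5a3 lost (0.71). Between CCl4 and DEN at day 84, 15 genes were called on 1 slide, and the calls of Col5a1, Col5a3, Col8a1, Col14a1, Col18a1, Fbln5 and Loxl2 were lost. The larger CCl4 effect at day 84 held on 1 slide for Mfap4 (2.53 ± 0.47, adjusted p = 0.03) and Eln (2.07 ± 0.43, adjusted p = 0.0399).

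In 4 of the 6 groups, 1 rat held the highest level of at least 19 of the 26 matrix genes. CCl4 replicate 2 at day 28 was the highest of its group in 23 of 26 genes (88.5%, against 41.6% of all genes), CCl4 replicate 3 at day 84 in 19 (73.1%, against 32.1%) and DEN replicate 1 at day 28 in 21 (80.8%, against 42.5%). Control replicate 1 was the highest at day 28 in 19 genes (73.1%, against 36% of all genes), and control replicate 3 the lowest in 19. The lead was smaller at day 84 in DEN rats, where replicate 2 was the highest in 15 (57.7%, against 40.3%), and in controls, where replicate 1 was the highest in 13 (50%, against 35.2%). The median SD between rats was 0.57 for the matrix genes in CCl4 rats at day 28, against 0.19 over all genes. It was 0.39 against 0.14 in controls of day 28, and 0.098 against 0.099 in controls of day 84.

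**Figure D4:**
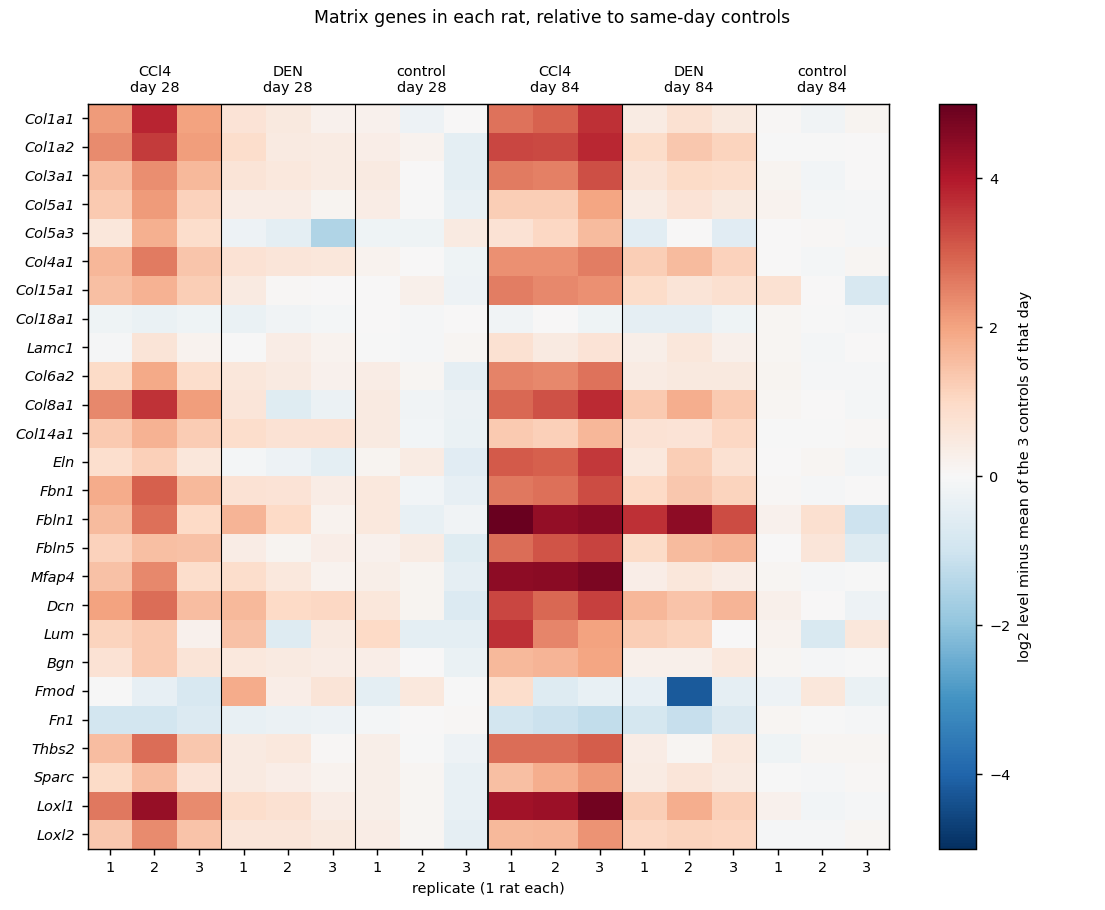
Level of each matrix gene (rows, grouped by role) in each rat (columns) minus the mean of the 3 controls of the same day, on a log2 colour scale from blue (lower) to red (higher). Replicate 2 of CCl4 at day 28 has the highest value of its group in 23 of 26 genes, and Fn1 is blue in every treated rat.

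Markers of matrix-producing cells mostly rose against controls in CCl4 rats, as the set did, and were mixed in DEN rats at day 84. Their summed level over 12 stellate cell and myofibroblast markers, in multiples of the array's 75th percentile, was 41.3, 77.6 and 40.1 in CCl4 rats at day 28, 28.0, 28.7 and 25.5 in DEN rats and 28.4, 21.4 and 16.6 in controls. At day 84 it was 63.1, 51.3 and 66.8 with CCl4, 24.0, 24.6 and 27.3 with DEN, and 21.2, 18.2 and 18.8 in controls. Such a sum is weighted toward the brightest probes of its list, and their share was not computed for any list of markers. CCl4 replicate 2 was the highest at day 28 and control replicate 3 the lowest, as they were for most matrix genes. The same held for the summed markers of portal fibroblasts and mesothelium, of cholangiocytes and of smooth muscle, so this order was not particular to stellate cell markers. With CCl4, 7 of 12 markers were called higher and 1 lower at each day, with DEN 1 and 0 at day 28 and 4 and 2 at day 84. Cygb and Rgs5 had the smallest adjusted p with CCl4, at 4.39-fold and 3.39-fold higher at day 28 and 9.77-fold and 3.87-fold at day 84. Des was 7.15-fold higher with CCl4 at day 84. Tagln, an actin-binding protein of myofibroblasts, was 7.60-fold higher with CCl4 at day 28 and 8.99-fold at day 84, and Acta2, smooth muscle actin, 3.54-fold and 2.41-fold. The 1 marker called lower with CCl4 at each day is not among those named, so the rises named do not stand for the whole list. Lrat, the retinoid enzyme of quiescent stellate cells, was not called with CCl4 (0.66 ± 0.29 and 0.43 ± 0.29). Acta2 and Lrat were singled out after their values were seen, and the part of these cells in the matrix results was not tested.

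Markers of other liver cells were measured beside them. The summed level of portal fibroblast and mesothelial markers (8 listed, 7 with a probe) was 5.83, 13.5 and 4.16 with CCl4, 3.27 to 4.74 with DEN and 2.41 to 3.88 in controls at day 28, and 15.5 to 18.4, 3.90 to 6.45 and 2.22 to 3.55 in the same order at day 84. Of the 5 tested, 4 were higher with CCl4 at day 28 and 5 at day 84. Thy1 and Cd34 were not well above background in any rat at day 28. Of 6 cholangiocyte markers, 4 rose with CCl4 at day 28 and 6 at day 84, and 5 with DEN at day 84, and their summed level was 8.72 to 11.3 with CCl4, 5.67 to 9.78 with DEN and 2.00 to 2.28 in controls at day 84. Of 7 sinusoidal endothelial markers, 0 were higher and 4 lower with CCl4 at day 84, and of 4 smooth muscle markers 1 was higher, near the share of all genes. Of 8 macrophage markers, 3 were higher and 3 lower with CCl4 at each day, not far above the shares of all genes, and 2 and 0 with DEN at each day. Their summed level was 98.5 to 121 with CCl4, 162 to 170 with DEN and 125 to 163 in controls at day 28, and 76.9 to 112, 90.5 to 118 and 124 to 146 in the same order at day 84. Gpnmb, a glycoprotein of lipid-laden and scar-associated macrophages, was higher with CCl4 by 3.42 ± 0.18 on the log2 scale at day 28 (adjusted p = 1.10e-08) and 11.4-fold at day 84, and 2.47-fold and 3.75-fold higher with DEN. Trem2, a lipid receptor of such macrophages, was at least 190-fold higher with CCl4 and at least 6.48-fold higher with DEN at day 84, and at day 28, with 1 of 3 controls well above background, 133-fold higher with CCl4 and not called with DEN. Clec4f, a lectin of Kupffer cells, was 3.44-fold and 6.91-fold lower with CCl4 at day 28 and day 84. The part of these cells in the matrix results was not tested either.

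Matrix genes outside the set moved less uniformly. Of 38 further structural genes, 26 were tested, and 15 were higher and 5 lower with CCl4 at day 28, 18 and 4 with CCl4 at day 84, 1 and 1 with DEN at day 28, and 9 and 3 with DEN at day 84. In the same order, 26.1%, 28%, 7.82% and 21.6% of all genes were called higher and 33.6%, 36.3%, 7.19% and 31.1% lower. Both DEN counts at day 28 were below these shares. Their summed level went the other way, at 261 to 417 with CCl4, 723 to 735 with DEN and 857 to 888 in controls at day 28, and at 356 to 401 with CCl4, 336 to 512 with DEN and 726 to 773 in controls at day 84. Of that sum 75.2% to 91.3% was Vtn, which encodes vitronectin, a plasma protein that the liver secretes. Vtn, described after its values were seen, was 3.09-fold lower with CCl4 at day 28 (adjusted p = 3.39e-05), 2.44-fold lower with CCl4 at day 84 (adjusted p = 0.000188) and 1.93-fold lower with DEN at day 84 (adjusted p = 0.0029). Ltbp2, which tethers to microfibrils, rose 7.61-fold with CCl4 at day 28. Mfap2, another microfibril protein, was at least 3.44-fold higher with CCl4 at day 84 (adjusted p = 2.29e-07 for the fitted difference), since no control was well above background there. Lama5, a laminin chain, rose with both compounds, 6.37-fold with CCl4 and 25.1-fold with DEN at day 28, and 13.4-fold with DEN at day 84. With CCl4, 6 of 14 collagen-processing enzymes tested, among 17 listed, were higher and 3 lower at day 28, and 6 and 5 at day 84. With DEN, 1 was higher and 4 lower at day 28, and 4 and 7 at day 84. The counts of enzymes lower with CCl4 were not above the shares of all genes. Pcolce, which speeds the trimming of procollagen, rose 4.55-fold and 10.6-fold with CCl4, and Loxl4, another lysyl oxidase, was 2.82-fold and 4.58-fold lower. Bmp1, the procollagen C-proteinase itself, fell by 0.89 ± 0.084 with CCl4 at day 28.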

How the data were processed

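Liver RNA of 18 rats was measured on 1-colour Agilent whole-genome arrays, 1 rat per array. The deposited spot intensity is the processed signal, background-subtracted within the array, and the file headers name Agilent Feature Extraction (version 10.7.1.1). The authors' deposited values hold a ratio for each probe. After division by each array's 75th percentile the processed signal matched it up to one constant per array (100% of probes within 0.01 log2 units), with no gene centring, and its column medians were 0.0852 to 0.0978. It was used for this check alone.

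Among 61537 non-control probes, those well above background in all rats of some group were kept (33790), 18 probes with outlier flags were left out and none was saturated. Probes were named through RefSeq accessions (28206 matched, 15645 genes). Per gene, the probe with the highest mean over all arrays was used. Levels are log2 of the processed signal minus the array's 75th percentile, which lay between 170 and 325. The number of arrays limits the precision. Differences were tested with limma 3.58.1 (lmFit and eBayes, R 4.3.3) over 10914 genes and all 6 groups with no covariate, with 12 residual degrees of freedom and Benjamini-Hochberg adjustment. Every adjusted p is from this fit, except where the text beside it names another limma fit, such as one over all probes, without an array or with other scaling. Where no array of a control group was well above background, the fold is a bound. It sets the treated mean against the mean, per array, of the higher of the probe's own signal and the lowest signal among probes well above background. An adjusted p beside a bound belongs to the fitted difference, which rests on controls not well above background, and does not test the bound. In simulated data for CCl4 against control at day 28 (10914 genes, 200 changed), 81% of changes of size 1 (log2) and 94% of size 2 were recovered, with 12 false calls at each size.

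Alternatives were normexp background correction (median spot signal, offset 50), other filters, median, quantile and spike-in scaling, the mean of a gene's probes, slide as a block, arrays of 1 slide, the replicate number as a block, a fit to the groups compared, and leaving out each array. Same-numbered rats did not deviate together (correlations of −0.13 to 0.13), and the numbers were not taken as pairs.

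The 40 genes, the other lists and the tests were chosen with earlier results of these data known. Values per rat are given for the 3 genes of each role (4 in roles of over 6 genes) with the smallest adjusted p against controls, for genes called lower and for genes whose effect differed between days, and otherwise by ranges. Of other lists up to 3 called genes with the smallest adjusted p are named. Promoters are RefSeq's on GRCr8. The array files carry coordinates of an older build, which were not used. There were 0 columns of samples outside the series. The 10 genes without a matched probe (Col5a2, Col4a2, Lama2, Lamb1, Nid1, Col6a1, Col6a3, Col12a1, Fbln2 and Lox) were not analysed here. Python 3.11.15 with numpy 2.4.6, pandas 2.3.3 and matplotlib 3.10.9 made tables and figures.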

Additional observations from a re-analysis of the deposited data

Results flagged for a closer look

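The difference between a compound's effect at day 84 and its effect at day 28, tested as an interaction in limma, passed the threshold for 6 of the 26 matrix genes with at least 1 compound. Over all genes, 3.51% were called higher and 2.52% lower for CCl4, and 7.64% and 8.41% for DEN. The DEN counts, 2 higher and 1 lower of 26, were near or below these shares. With CCl4 the effect was larger at day 84 by 2.97 for Mfap4 (log2, adjusted p = 0.00261), 2.34 for Eln (adjusted p = 0.00297), 1.74 for Fbln5 (adjusted p = 0.0328), 2.85 for Fbln1 (adjusted p = 0.0405) and 1.28 for Col6a2 (adjusted p = 0.0377). With DEN it was larger by 2.84 for Fbln1 (adjusted p = 0.023) and 1.12 for Eln (adjusted p = 0.0418), and for Fn1 it moved further down, by −0.60 (adjusted p = 0.02). The 2 values for Fbln1 rest on day 84 controls that were not well above background in any rat, so neither their size nor their p has a firm base. With those controls at the lowest signal well above background the differences were 1.89 for CCl4 and 1.88 for DEN. For Eln with DEN, the level in DEN rats was not higher at day 84, and the difference came from lower controls. The DEN and CCl4 values share their controls.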

How the results depend on the processing

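The counts of matrix genes called with CCl4 against control kept within 1.5 times of 23 and 24 under every alternative run, 20 to 24 at day 28 and 23 to 24 at day 84 without 1 array, and so did those of CCl4 against DEN (17 to 21 and 19 to 21). With DEN, spike-in scaling called 11 genes at day 28 and 23 at day 84, and leaving out 1 array gave 0 to 3 and 14 to 15. For the DEN effect between days, a fit to the groups compared called 5, and leaving out 1 array 0 to 4. For the CCl4 effect between days, 2 were called with no filter on dim probes, spike-in scaling, slide as a block, arrays of 1 slide or a fit to the groups compared, and 2 to 16 without 1 array. Between the control groups, 1 gene was called with normexp, no filter, quantile or spike-in scaling or the replicate block, 0 with slide as a block, and 1 to 5 without 1 array. Signs turned for Col18a1 with CCl4 at day 28 (quantile 0.025, spike-in 0.52) and with DEN at day 84 (spike-in 0.35), for Col15a1 with DEN at day 84 (normexp −0.17) and for the median between control groups (slide as a block, 0.012). The cause was not tested. With the replicate number as a block, 23 and 24 genes were called with CCl4 and 2 and 15 with DEN at day 28 and day 84. Calls of 22 of 24 genes with CCl4 at day 84 (not Col5a3 and Lamc1), 16 of 23 with CCl4 at day 28, 9 of 15 with DEN at day 84 and 0 of 2 with DEN at day 28 remained under every alternative run. Over all genes, the calls for DEN at day 28 were 1639, against 3118 with spike-in scaling and 700 without 1 array. Those for CCl4 against DEN at day 84 were 3743, against 2012 with slide as a block and 1812 on 1 slide. For the DEN effect between days they were 1752, against 923 with spike-in scaling, and for the CCl4 effect 658, against 1162 with normexp, 397 with no filter, 240 with spike-in scaling, 402 with slide as a block, 255 on 1 slide, 369 in a fit to the groups compared and 1360 without CCl4 replicate 2 of day 28. Between the control groups they were 1066, against 396 with spike-in scaling and 49 with slide as a block.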
